A study of Mus musculus with 3 samples.

Results

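Collagen genes were followed across the cells of adult mouse sciatic nerve. The rule took every row whose symbol has the form of a collagen alpha chain gene, the letters Col, a type number, the letter a and a chain number. It found 43 of the 21438 genes of the deposited tables, of which 42 have a row in the injured beads table, 42 in the injured FACS table and 39 in the uninjured table. By the collagen classes used here, 11 are fibrillar, 8 are basement membrane collagens, 8 are FACIT collagens (fibril-associated collagens with interrupted triple helices) and 16 belong to other types. No measured value entered the rule, although the members were chosen with earlier results of these data known.

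The study compared distal sciatic nerve 9 days after resection with uninjured sciatic nerve, by Drop-seq of single cells. The groups are 3, each with 1 library: injured nerve of wildtype CD1 mice cleaned with myelin removal beads, injured nerve of CD1 and C57BL/6 mice sorted by FACS, and uninjured nerve of wildtype CD1 mice cleaned with beads, of which the authors deposited predicted mesenchymal cells only. All mice were adult, and all nerves were dissociated with collagenase and trypsin. The labels do not say how many animals each library pools, and strain and isolation differ together between the 2 injured libraries.

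Collagens are secreted proteins of 3 alpha chains wound into a triple helix, and they make up much of the matrix that surrounds nerve fibres. Fibrillar collagens such as types I, III and V form the fibrils of the endoneurium, perineurium and epineurium, while type IV forms the network of the basement membranes around Schwann cells, perineurial cells and vessels. FACIT collagens sit on the surface of fibrils, and type VI forms beaded filaments close to cells.

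The authors' mesenchymal tables hold 1289 injured cells (4746263 UMIs, median 2798 per cell) and 880 uninjured cells (2169121 UMIs, median 2102.5). In the whole injured libraries, 4300 barcodes with 10859939 UMIs came from beads and 2000 barcodes with 7122377 UMIs from FACS. No barcode is shared between the uninjured table and the injured ones, and 1 is shared between the beads and FACS tables. All 8 mesenchymal markers (Pdgfra, Dcn, Lum, Serpinf1, Dpt, Mfap5, Fbln1 and Gsn) were detected in both mesenchymal tables, with a summed level of 24599 CPM after injury and 71883 CPM before. Here a level is the summed unique molecular identifiers (UMIs) of a gene per 1000000 UMIs of a pool of cells (CPM). Drop-seq tags the 3′ end of a transcript, so levels were not divided by gene length and different genes are not ranked against each other. With 1 library per group there is no test and no replicate check, and the ranges in brackets are 95% intervals that cover counting error only.

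The first comparison asked how much collagen message mesenchymal cells held before and after injury. All collagen genes together made up 5.20% of the UMIs of injured mesenchymal cells and 5.38% of those of uninjured cells, or 51971 CPM (51766.5 to 52177) and 53794 CPM (53485.5 to 54103). The log2 ratio of the 2 totals was -0.05 (-0.06 to -0.04), so the sum was of like size in both pools. The makeup of the sum differed more than the sum itself. Fibrillar collagens were at 42967 CPM after injury and 47331 CPM before, a log2 ratio of -0.14 (-0.15 to -0.13). FACIT collagens were at 1495 CPM after injury and 622 CPM before, a log2 ratio of 1.26 (1.18 to 1.35). The FACIT sum was also followed within the endoneurial-, epineurial- and perineurial-like subclasses described further on. Its log2 ratio there was 0.71 (0.50 to 0.92), 0.74 (0.60 to 0.88) and 0.53 (0.03 to 1.04). The endoneurial-like sums, 402 and 246 CPM, include Col14a1 at 105 and 5.43 CPM, which is not read as a difference further on. The perineurial-like sums include Col14a1 on 10 and 1 UMIs, while Col12a1 there was at 194 CPM after injury and 246 CPM before. The other types, with types VI, VIII, XXVI and XXVIII among them, were at 5296 and 3243 CPM, a log2 ratio of 0.71 (0.67 to 0.75). Basement membrane collagens as a sum were at 2214 and 2597 CPM, a log2 ratio of -0.23 (-0.28 to -0.18). Fibrillar genes thus gave 82.7% of collagen UMIs after injury and 88.0% before. In FACS mesenchymal-like cells they gave 86.4%, and the log2 ratio to the uninjured pool was 0.10 (0.05 to 0.14) for the other types, 0.86 (0.78 to 0.95) for FACIT collagens and -0.61 (-0.66 to -0.56) for basement membrane collagens.

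The sign of the total's ratio depended on how cells were weighted. Thinned to 1000 UMIs per cell, injured cells stood at 54225 CPM and uninjured cells at 49599 CPM, and the mean over cells was 53919 and 48766 CPM. The median cell held 48043 CPM of collagen message after injury and 39866 CPM before. Every injured cell and all but 1 uninjured cell had a collagen UMI. The FACS library's mesenchymal-like cells, 634 cells named from markers, held 46343 CPM (46131 to 46556), below both beads pools.

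**Figure D1:**
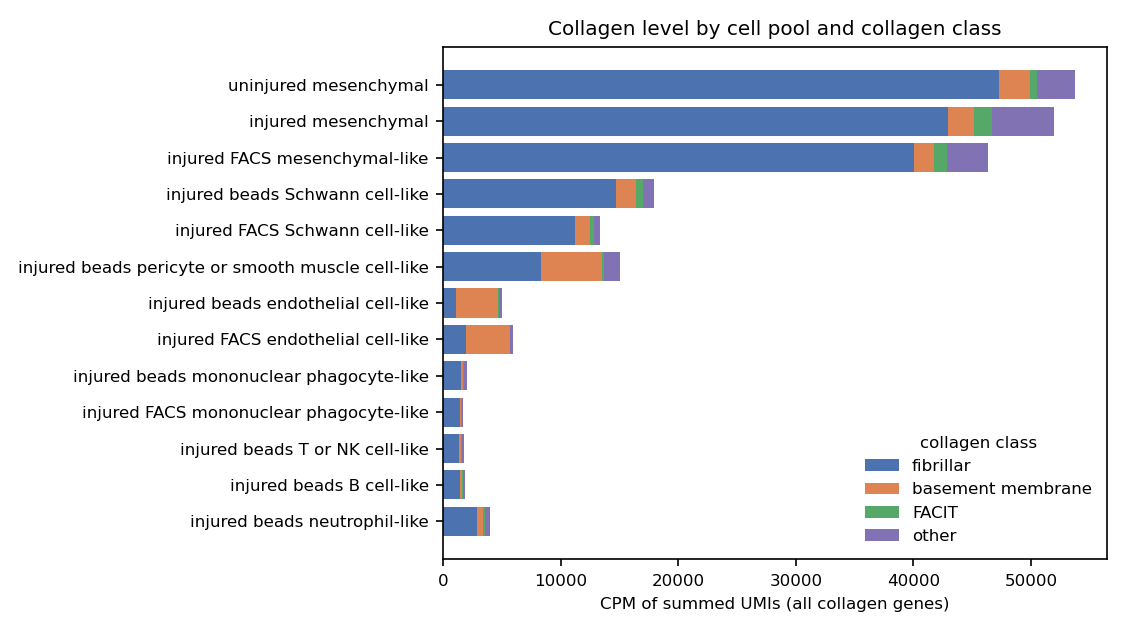
Level of all collagen genes in 13 pools of cells, as CPM of summed UMIs on a linear axis from 0; the colours of each bar are the 4 collagen classes. The 3 mesenchymal pools stand between 46343 and 53794 CPM, Schwann cell-like pools at 17924 and 13342 CPM, and the 5 immune pools shown between 1707 and 3934 CPM, the highest of them neutrophil-like.

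The second comparison asked which single collagen genes differed between injured and uninjured mesenchymal cells. The size rule called a gene that reached 50 CPM in either pool and differed by 2-fold or more with an interval that excluded 1. Of the 43 collagen genes, 22 reached 50 CPM, and of these 10 were higher after injury and 2 lower. Over all 3964 genes that reached the floor, 15.3% were called, 8.17% as higher and 7.14% as lower. The median log2 ratio was 0.58 over the 22 collagen genes and 0.20 over all those genes. The genes that were higher are Col28a1, Col11a1, Col26a1, Col18a1, Col12a1, Col14a1, Col8a1, Col27a1, Col16a1 and Col6a3, and those that were lower are Col4a5 and Col15a1.

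The main fibrillar chains did not pass the rule. Col1a1, which encodes the alpha-1 chain of type I collagen, was at 8607 CPM (8524 to 8691) after injury and 8539 CPM (8416 to 8663) before, with intervals that overlap. Col1a2, the partner chain, was at 14635 CPM after injury and 17989 CPM before, a log2 ratio of -0.30 (-0.32 to -0.28). Col3a1, the single chain of type III collagen, was at 16399 and 18468 CPM, a log2 ratio of -0.17 (-0.19 to -0.15). These 3 genes held most of the fibrillar sum in both pools. In FACS mesenchymal-like cells Col1a1 was at 8430.1 CPM, Col1a2 at 13685 CPM and Col3a1 at 15712 CPM. Type V chains, which are built into type I fibrils and help set their diameter, did not pass either. Col5a1 was at 818 CPM after injury and 639 CPM before, with a log2 ratio of 0.36 (0.27 to 0.44). Col5a2 was at 1721 and 1103 CPM, a log2 ratio of 0.64 (0.58 to 0.71), and Col5a3 at 493 and 479 CPM, with overlapping intervals.

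The RefSeq promoters of the abundant chains are shown because Col1a2 and Col3a1 carry different letters in the same window. Each window runs from 250 bases before to 50 bases after a RefSeq transcript start, on GRCm38.p6, and capitals mark matches on either strand to 4 motifs. These were CCAAT (the CCAAT box), TATAAA (the TATA box), GGGCGG (the GC box) and TGANTCA (the AP-1 site). Col1a2 lies at chr6:4505368-4505667, plus strand, and Col3a1 at chr1:45311288-45311587, plus strand.
Col1a2: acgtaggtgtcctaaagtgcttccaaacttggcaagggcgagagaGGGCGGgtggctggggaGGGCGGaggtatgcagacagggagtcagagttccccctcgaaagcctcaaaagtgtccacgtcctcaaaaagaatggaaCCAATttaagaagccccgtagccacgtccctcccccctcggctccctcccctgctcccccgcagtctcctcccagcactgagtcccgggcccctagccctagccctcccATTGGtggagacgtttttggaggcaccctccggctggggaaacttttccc
Col3a1: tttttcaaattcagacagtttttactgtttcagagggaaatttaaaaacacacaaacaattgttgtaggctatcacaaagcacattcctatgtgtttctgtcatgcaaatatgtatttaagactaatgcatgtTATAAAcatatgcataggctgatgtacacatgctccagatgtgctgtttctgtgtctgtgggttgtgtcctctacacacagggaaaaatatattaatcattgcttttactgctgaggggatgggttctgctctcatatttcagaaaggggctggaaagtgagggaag
Col1a2 has 2 matches each to CCAAT and GGGCGG, while Col3a1 has 1 match to TATAAA and a G+C content of 37.7% against 61.0% in Col1a2. A RefSeq window was found for 34 of the 43 genes, 36 windows in all. GGGCGG occurs in 23 of the 36 (63.9%) and in 35.7% of all 32851 promoter windows of that length. CCAAT occurs in 33.3% of the collagen windows and 37.4% of all, TATAAA in 13.9% and 13.6%, and TGANTCA in 2.78% and 7.81%. No match to 1 of these motifs overlaps a match to another in the collagen windows. A match is a run of letters and not a measured site.

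The 2 minor fibrillar genes past the floor were both called. Col11a1, a type XI chain that is built into the type II fibrils of cartilage, was at 184 CPM (172 to 196) after injury and 47.0 CPM (38.3 to 57.1) before. Its log2 ratio was 1.97 (1.67 to 2.28), and in FACS cells, at 79.3 CPM, it was 0.75 (0.43 to 1.09), which is under the 2-fold limit. Col27a1, a minor fibrillar chain of cartilage, was at 56.9 CPM (50.3 to 64.1) and 22.6 CPM (16.7 to 29.9), a log2 ratio of 1.33 (0.89 to 1.80). In FACS cells Col27a1 was at 42.9 CPM, under the floor. Both genes reached the floor only in the injured pool, so a scarce fibrillar gene of like level in both pools could not be compared with them. Col2a1, at 41.5 CPM after injury and 42.9 CPM before, was such a gene and stayed under the floor.

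All 3 FACIT genes past the floor were called as higher over all cells. Col9a2, a FACIT gene just under the floor, went the other way, at 13.1 CPM after injury and 48.4 CPM before. It was called as lower when scaled by DESeq2 size factors, by edgeR TMM or by the total without collagen UMIs. With the endoneurial-, epineurial- and perineurial-like subclasses at the same weight, the Col12a1 ratio changed sign (-0.25) and Col16a1 missed the limit (0.88), while Col14a1 passed it (1.01). That Col14a1 value rests in part on endoneurial-like levels that are not read as a difference further on. It also rests on 10 and 1 UMIs of perineurial-like cells. In epineurial-like cells the Col14a1 log2 ratio was 0.89 (0.73 to 1.05), under the limit. Col14a1, which binds the surface of type I fibrils, was at 901 CPM (874 to 928) after injury and 342 CPM (317 to 367) before, a log2 ratio of 1.40 (1.29 to 1.51). In FACS cells it was at 761 CPM, a log2 ratio of 1.16 (1.04 to 1.27) to the same uninjured pool. Col12a1, a FACIT chain of dense connective tissue, was at 232 CPM (219 to 246) and 78.8 CPM (67.5 to 91.6), a log2 ratio of 1.56 (1.32 to 1.80). Col16a1, another FACIT chain, was at 343 CPM (327 to 360.1) and 152 CPM (136 to 169), a log2 ratio of 1.18 (1.01 to 1.35). In FACS cells Col12a1 was at 110.0 CPM and Col16a1 at 248 CPM, with log2 ratios of 0.48 (0.22 to 0.74) and 0.71 (0.53 to 0.90). Those 2 FACS levels lay above the uninjured level by less than 2-fold.

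Basement membrane genes went both ways. Col18a1, whose protein ends in the fragment endostatin, was at 422 CPM (404 to 441) after injury and 138 CPM (123 to 154) before, a log2 ratio of 1.61 (1.44 to 1.80). Col15a1, the close relative of Col18a1 in the multiplexin group, was at 699.5 CPM (676 to 724) after injury and 1539.8 CPM (1488 to 1593) before, a log2 ratio of -1.14 (-1.21 to -1.07). In FACS cells Col18a1 was at 345 CPM and Col15a1 at 652 CPM, so both lay on the same side of the uninjured level as in the beads cells. Col4a5, a chain of the type IV network best known from the glomerular basement membrane, was at 35.8 CPM (30.6 to 41.6) after injury and 103 CPM (90.2 to 118) before. Its log2 ratio was -1.53 (-1.82 to -1.23), and -2.11 (-2.48 to -1.76) in FACS cells, at 23.9 CPM. Over the 412 injured and 331 uninjured cells with at most 1 UMI of other cell classes, whose median UMI counts are 907.5 and 1469, neither gene passed the rule, with log2 ratios of -0.74 for Col15a1 and -0.87 for Col4a5.

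Col4a1 and Col4a2, which encode the ubiquitous type IV chains, did not pass. Col4a1 was at 609.5 CPM (588 to 632) after injury and 485 CPM (456 to 515) before, and Col4a2 at 440.3 CPM (422 to 459.6) and 306 CPM (283 to 330.3). The log2 ratios were 0.33 (0.23 to 0.43) and 0.52 (0.40 to 0.65). In FACS cells Col4a1 was at 391 CPM and Col4a2 at 276 CPM, with log2 ratios of -0.31 and -0.15, so the side of the uninjured level differed between the injured libraries. The 2 genes lie head to head on chromosome 8, with RefSeq starts 21 bases apart on opposite strands, and their windows share 78 bases. Both windows are shown, since the ratio of the 2 chains was followed across pools. Col4a1 lies at chr8:11312777-11313076, minus strand, and Col4a2 at chr8:11312555-11312854, plus strand.
Col4a1: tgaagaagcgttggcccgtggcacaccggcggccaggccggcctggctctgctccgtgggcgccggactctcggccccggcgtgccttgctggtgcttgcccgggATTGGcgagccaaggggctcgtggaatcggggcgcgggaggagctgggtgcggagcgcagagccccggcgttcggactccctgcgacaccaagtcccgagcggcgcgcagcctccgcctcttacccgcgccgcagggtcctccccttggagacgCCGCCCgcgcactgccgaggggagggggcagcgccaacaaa
Col4a2: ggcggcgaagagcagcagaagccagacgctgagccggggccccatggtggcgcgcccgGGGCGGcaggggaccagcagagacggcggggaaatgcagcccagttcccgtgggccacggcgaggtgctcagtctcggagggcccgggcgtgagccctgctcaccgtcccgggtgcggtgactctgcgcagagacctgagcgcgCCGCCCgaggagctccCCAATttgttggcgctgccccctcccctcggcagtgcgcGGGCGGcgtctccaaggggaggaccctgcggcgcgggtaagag
Both windows hold CCAAT and GGGCGG matches and no TATAAA. The ratio of Col4a1 to Col4a2 UMIs was 1.38 (1.31 to 1.47) in injured and 1.58 (1.44 to 1.75) in uninjured mesenchymal cells. It was 1.40 (1.33 to 1.48) in endothelial cell-like and 1.32 (1.22 to 1.43) in pericyte or smooth muscle cell-like cells, pools with a higher level of both chains. In endoneurial-like cells, a subclass described further on, it was 1.10 (0.997 to 1.21) in the injured beads library. It was 1.28 (1.10 to 1.48) in FACS and 1.37 (1.18 to 1.59) in uninjured cells of that subclass. In GENCODE vM21 exons of these 2 genes overlap on opposite strands, and the sources used here do not say whether counting used strand. Col5a1, Col15a1, Col4a2, Col4a3, Col9a3, Col22a1, Col6a4, Col6a6 and Col10a1 also overlap exons of other annotated genes on the opposite strand. Col3a1, Col20a1 and Col7a1 overlap such exons on their own strand. Reads inside the opposite-strand overlaps cannot be told apart if strand was not used, and those inside the own-strand overlaps in either case. Where these overlaps lie along the transcripts was not examined.

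Among the other types, type VI chains split. Col6a1 was at 1167 CPM after injury and 1099 CPM before, and Col6a2 at 997 and 912 CPM, with log2 ratios of 0.09 (0.02 to 0.16) and 0.13 (0.05 to 0.20). Col6a3, the third chain of the usual type VI trimer, was at 811 CPM (785 to 837) and 383 CPM (357 to 409.6), a log2 ratio of 1.08 (0.97 to 1.19). The ratio of Col6a3 to Col6a1 UMIs was accordingly 0.348 (0.321 to 0.377) before and 0.694 (0.666 to 0.724) after injury, and 0.625 in FACS cells. In FACS cells Col6a3 was at 571 CPM, a log2 ratio of 0.58 (0.46 to 0.69), under the limit. The call for Col6a3 lay close to the limit: scaled by DESeq2 size factors or by edgeR TMM, which lower every ratio by 0.12 and 0.13, its log2 ratio was 0.96 under both.

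Col8a1, a network-forming collagen of vessel walls and the cornea, was at 1657 CPM (1621 to 1694) after injury and 629.7 CPM (597 to 664) before, a log2 ratio of 1.40 (1.31 to 1.48). In FACS cells it was at 858 CPM, a log2 ratio of 0.45 (0.35 to 0.54), under the limit. Col28a1, a short-helix collagen known from peripheral nerve, was at 336 CPM (319.8 to 353) and 67.3 CPM (56.8 to 79.2). Its log2 ratio of 2.32 (2.07 to 2.57) was the largest of the called collagen genes in this comparison, and in FACS cells, at 143 CPM, it was 1.08 (0.82 to 1.36). Col26a1 was at 247 CPM (233 to 261) after injury and 67.8 CPM (57.3 to 79.7) before, a log2 ratio of 1.86 (1.62 to 2.12). In FACS cells Col26a1 was at 155 CPM, a log2 ratio of 1.19 (0.93 to 1.46).

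**Figure D2:**
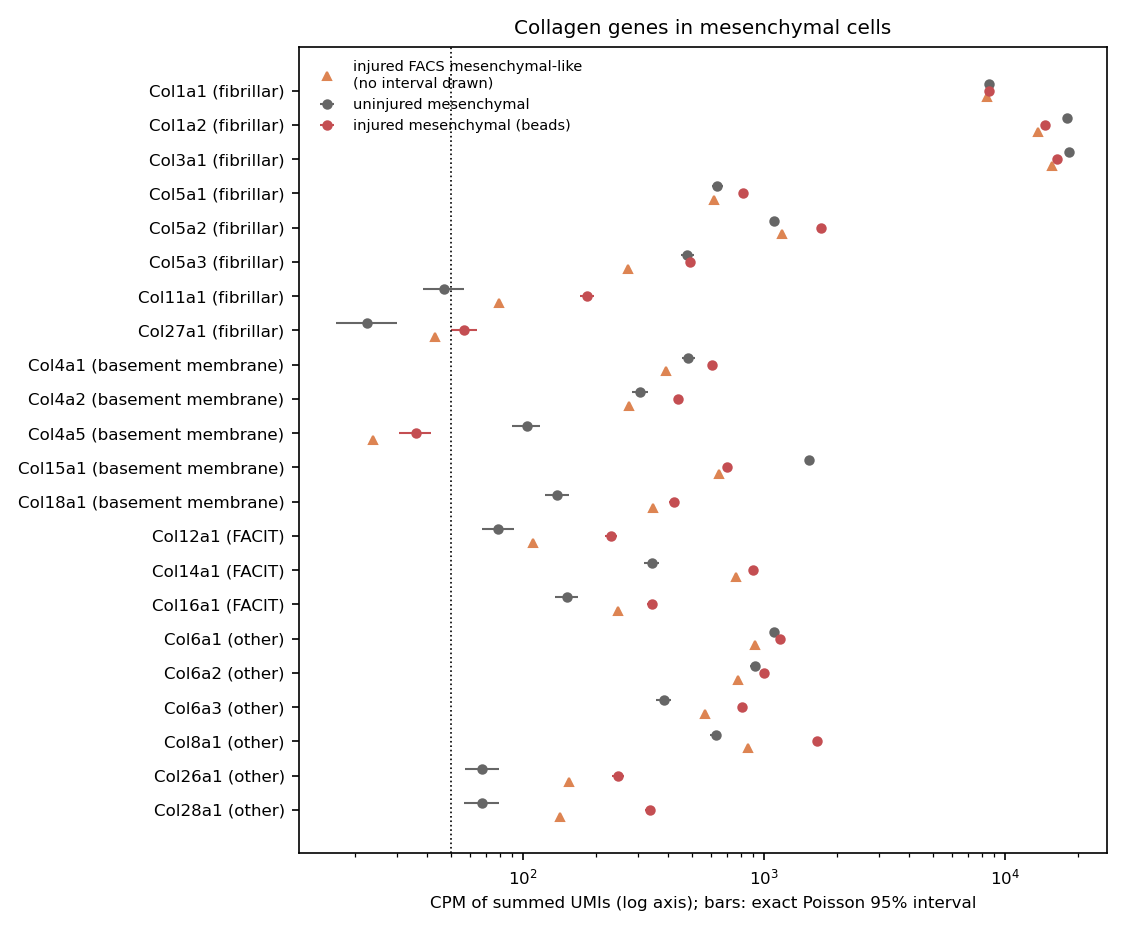
Level of the 22 collagen genes with at least 50 CPM (dotted line) in the injured or uninjured mesenchymal pool, as CPM on a log axis with exact Poisson 95% intervals; FACS mesenchymal-like cells are drawn as triangles without intervals. Col1a1, Col1a2 and Col3a1 lie between 8430.1 and 18468 CPM in every pool, and Col15a1 and Col4a5 are the genes whose uninjured point stands furthest to the right of both injured ones.

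Shares of cells with a UMI were compared after thinning each cell to 1000 UMIs, which kept 974 injured and 761 uninjured cells and left out 315 and 119. Col28a1 was found in 25.9% and 9.59% of them, before thinning in 22.0% and 8.75%. Col14a1 was found in 67.8% and 29.6%, before thinning in 59.8% and 27.7%. Col15a1 was found in 65.2% and 67.8%, before thinning in 54.5% and 63.1%. In thinned phagocyte-like cells, which should lack these genes, the shares were 1.45%, 10.5% and 8.73%. Median depths were 2798 UMIs in injured, 2102.5 in uninjured and 1073.5 in phagocyte-like cells.

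Of the 21 collagen genes under the floor, 19 had a UMI in a mesenchymal pool and were given no call. Col10a1 and Col19a1 had none, where 3 UMIs over the pool would be 0.632 CPM after injury and 1.38 CPM before, and the exact Poisson interval of a count of 0 ends at 0.777 and 1.70 CPM. Col2a1, the type II chain of cartilage, was at 41.5 CPM after injury and 42.9 CPM before. Col9a2, a FACIT chain of cartilage, was at 13.1 CPM after injury and 48.4 CPM before. Col24a1, a minor fibrillar chain, had 47 UMIs in injured cells (9.90 CPM) and no row in the uninjured table, where it was read as 0. Its injured level is at least 7.16-fold higher than a floor of 3 UMIs over the uninjured pool, counting error of the 47 UMIs not included, and the exact interval of the Col24a1 log2 ratio starts at 2.48. Col23a1, a transmembrane collagen, was at 4.21 CPM after injury and 22.1 CPM before. The rest lay at or under 26.3 CPM in both pools, Col8a2 and Col6a6 being the highest of them.

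The FACS library gave a separate injured sample, compared with the same uninjured pool. Of the 21 collagen genes past the floor there, 4 were higher (Col18a1, Col14a1, Col26a1 and Col28a1) and 2 were lower (Col4a5 and Col15a1), beside 18.1% of 3917 genes called, 10.1% as higher and 7.99% as lower. The median log2 ratio over the 21 was -0.02 beside 0.21 over all those genes. Col5a3 stood at 271 CPM in FACS and 493 CPM in beads cells, and Col5a2 at 1182 and 1721 CPM. Both injured pools are set against 1 uninjured library, so their ratios are not independent of each other.

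**Figure D3:**
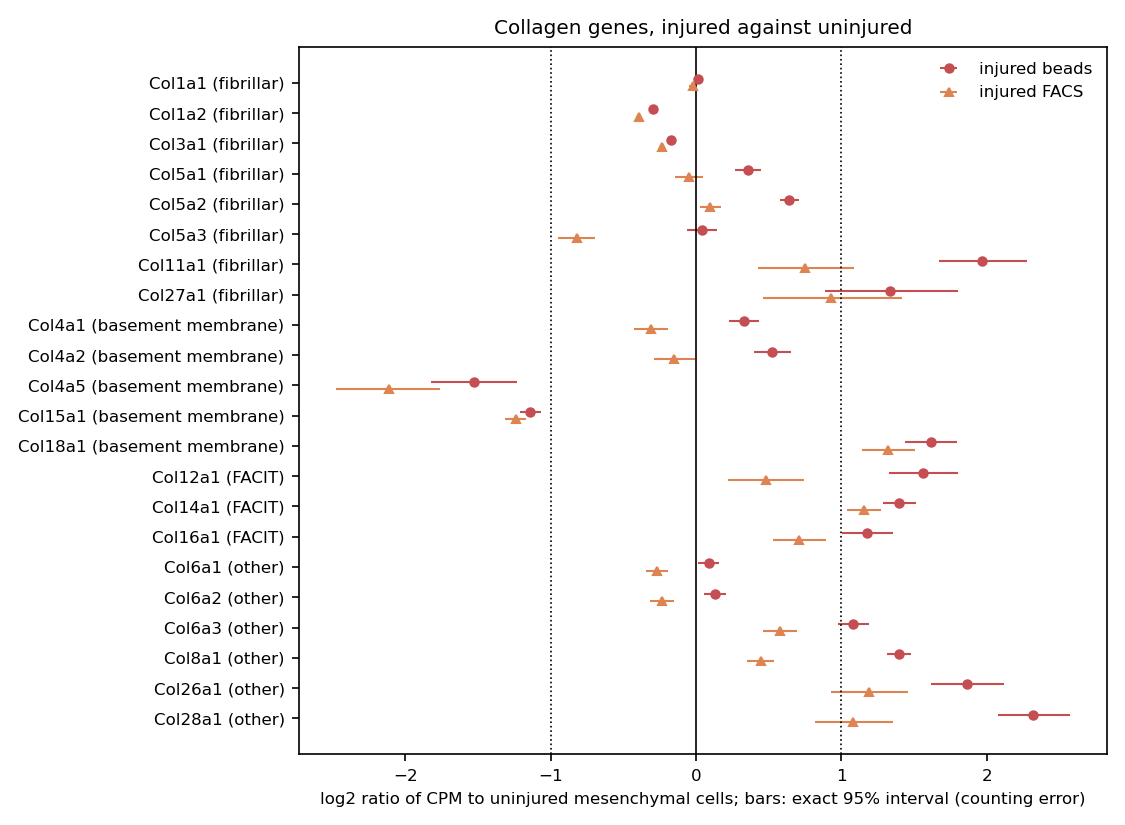
Log2 ratio of the 22 collagen genes to the uninjured mesenchymal pool, for the injured beads pool (circles) and FACS mesenchymal-like cells (triangles), with exact 95% intervals of counting error; dotted lines mark 2-fold. Col28a1 reaches 2.32 with beads and 1.08 with FACS, and Col15a1 and Col4a5 lie below -1 with both.

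Other cell types and the makeup of the pools moved with injury and are given here as values. Markers of mononuclear phagocytes summed to 394 CPM in injured, 31.3 CPM in uninjured and 1235 CPM in FACS mesenchymal cells, with 13, 8 and 13 of 13 detected and Adgre1, C1qa, Fcgr1, Itgax and Cd209a at 0 in the uninjured pool. Schwann cell markers summed to 128, 391 and 129 CPM with 10 of 10 detected in each, and pericyte or smooth muscle cell markers to 382, 455 and 199 CPM. Differentiating-like cells, named from Dlk1, Mest, Cthrc1, Tnc, Postn and Igfbp2, were 415 of the 1289 injured cells and 1 of the 880 uninjured cells. With the endoneurial-, epineurial- and perineurial-like subclasses taken at the same weight, 6 collagen genes were higher and 1 lower. No share over all genes was taken for that setting. Col14a1 is among those 6, with the caveat given above. Beside Col12a1 and Col16a1, given above, Col6a3 (0.61), Col27a1 (0.92) and Col4a5 (-0.33) missed the limit in that setting. Beyond this setting and the cells with few UMIs of other classes, the part of these cells in the calls was not tested.

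Collagens were then followed within mesenchymal subclasses, named from markers after clustering without any collagen gene. Endoneurial-like cells were 248 injured and 425 uninjured cells, epineurial-like cells 193 and 379, and perineurial-like cells 73 and 66. Among the named subclasses the total was highest in differentiating-like cells of the injured beads library, at 65716 CPM (65375 to 66059), and in epineurial-like cells of the FACS and uninjured libraries, at 69183 and 63244 CPM. Epineurial-like cells of the injured beads library held 53575 CPM, and differentiating-like cells of the FACS library 47275 CPM. The 360 injured cells of unnamed subclass clusters, at a median of 660.0 UMIs, held 59973 CPM. Perineurial-like cells held 20961 CPM (20349 to 21587) after injury and 14212 CPM (13591 to 14854.5) before. Endoneurial-like cells held 35723 CPM (35434 to 36014.5) and 50794 CPM (50375 to 51216). The fibrillar sum of endoneurial-like cells had a log2 ratio of -0.74 (-0.76 to -0.73) and that of perineurial-like cells 0.65 (0.56 to 0.74), so the direction differed between the subclasses.

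In endoneurial-like cells 6 of the 22 collagen genes past the floor were higher after injury and 3 were lower, where 20.1% of 3710 genes were called, 10.8% as higher and 9.33% as lower. Most of the injured cells of this class (246) came from 1 cluster led by Wif1, Ccl9 and Ccl2, while the uninjured cells came from another, led by Angptl7 and Enpp2. The median cell held 6159.5 UMIs after injury and 2181 before, and the part of depth in these values was not tested. Col14a1 was at 105 CPM (89.6 to 122) after injury and 5.43 CPM (1.99 to 11.8) before, a log2 ratio of 4.27 (3.12 to 5.74). The 5 immune classes of the injured beads library, which should lack this gene, held 42.5 to 105 CPM of Col14a1, so its injured endoneurial-like level lay at the upper end of that background. No such classes were at hand for the uninjured library, and the Col14a1 call in endoneurial-like cells is not read as a difference. Its level in epineurial-like cells was 1475 and 795 CPM, and in differentiating-like cells 1443 CPM.

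Among the named mesenchymal subclasses, Col28a1 and Col26a1 were found mainly in endoneurial-like cells in all 3 libraries. Col28a1 was there at 905 CPM (860 to 953) after injury, 128 CPM (107 to 150.4) before and 513 CPM (468 to 562) in FACS cells, and at or under 22.8 CPM in the epineurial-, perineurial- and differentiating-like pools of these libraries. Col26a1 stood at 650 CPM (611 to 690.3), 128 CPM (108 to 151) and 575 CPM (527 to 626), and at or under 25.5 CPM in those other pools. Their log2 ratios within endoneurial-like cells were 2.83 (2.58 to 3.09) and 2.34 (2.09 to 2.60). Col11a1 was at 402 CPM (372 to 434) after injury, 80.5 CPM (64.7 to 99.1) before and 240.1 CPM (209 to 274) in FACS cells, a log2 ratio of 2.32 (2.00 to 2.66). Col8a1 was at 2471 CPM (2395 to 2549) after injury and 627 CPM (581 to 675) before, a log2 ratio of 1.98 (1.86 to 2.10), and Col18a1 at 466 and 213 CPM, a log2 ratio of 1.13 (0.91 to 1.34). Col28a1 and Col26a1 were among the leading genes of the injured endoneurial-like cluster, although no collagen was used to build it. Outside mesenchymal cells, Schwann cell-like cells held Col28a1 at 110 CPM with beads and 70.7 CPM with FACS. The 5 immune classes with beads held at most 23.3 CPM of it. Col26a1 was at 10.2 and 4.42 CPM in the Schwann cell-like cells. Uninjured Schwann cells could not be read, since only mesenchymal cells of that library are given.

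The promoters of Col28a1 and Col11a1, the genes with the largest called log2 ratios over all mesenchymal cells, are shown for their unlike letters. Col28a1 lies at chr6:8192568-8192867, minus strand, and Col11a1 at chr3:114030290-114030589, plus strand.
Col28a1: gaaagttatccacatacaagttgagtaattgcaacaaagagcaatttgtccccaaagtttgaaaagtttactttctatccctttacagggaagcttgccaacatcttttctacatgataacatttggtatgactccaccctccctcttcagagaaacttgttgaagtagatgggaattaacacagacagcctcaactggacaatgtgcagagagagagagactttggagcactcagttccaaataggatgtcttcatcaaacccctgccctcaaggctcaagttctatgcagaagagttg
Col11a1: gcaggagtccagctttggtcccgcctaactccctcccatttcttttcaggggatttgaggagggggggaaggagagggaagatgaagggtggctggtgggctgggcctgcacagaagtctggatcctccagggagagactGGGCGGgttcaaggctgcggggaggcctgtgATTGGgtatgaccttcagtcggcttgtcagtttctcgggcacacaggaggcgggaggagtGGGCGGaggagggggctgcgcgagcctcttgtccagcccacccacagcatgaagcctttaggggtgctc
The Col28a1 window holds none of the 4 motifs and has a G+C content of 41.7%, while that of Col11a1 holds 1 CCAAT and 2 GGGCGG matches at 62.3%. No match says only that these letters are not in this window.

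Lower in injured endoneurial-like cells were Col15a1, Col1a2 and Col9a2. Col15a1 was at 1111 CPM (1061 to 1164) after injury and 2639 CPM (2544 to 2737) before, a log2 ratio of -1.25 (-1.33 to -1.16), and at 1139 CPM in FACS cells. It stood at 404 and 428 CPM in epineurial-like cells, with overlapping intervals. Col1a2 was at 8112 and 16479.5 CPM, a log2 ratio of -1.02 (-1.05 to -0.99), just past the limit. Col9a2 was at 29.4 CPM after injury and 92.3 CPM before, a log2 ratio of -1.65 (-2.18 to -1.14). Col2a1, the gene that shares cartilage with Col9a2, was also mostly endoneurial-like, at 109 CPM (93.6 to 126) and 79.6 CPM (63.8 to 98.1), with overlapping intervals. In the other named subclasses Col2a1 reached 9.44 CPM at most.

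In epineurial-like cells 1 of the 19 collagen genes past the floor was called, where 6.67% of 3822 genes were, 4.5% as higher and 2.17% as lower. That gene, Col6a6, an alternative chain of type VI collagen, was at 93.9 CPM after injury and 45.1 CPM before, on 37 and 41 UMIs, a log2 ratio of 1.06 (0.38 to 1.74). At a clustering resolution of 1.6 its log2 ratio was 0.31. Col14a1, given above, had a log2 ratio of 0.89 (0.73 to 1.05) there. The 3 main fibrillar chains were lower by less than 2-fold.

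In perineurial-like cells 4 of the 21 collagen genes past the floor were higher and 1 was lower, where 13.3% of 4852 genes were called, 5.71% as higher and 7.56% as lower. These pools hold 211870 and 138333 UMIs, so intervals are wide. Col5a1 was at 373 CPM after injury and 72.3 CPM before, on 79 and 10 UMIs, a log2 ratio of 2.37 (1.41 to 3.48). Col16a1 was at 264 and 101 CPM, a log2 ratio of 1.38 (0.52 to 2.34), and Col18a1 at 189 and 36.1 CPM, on 40 and 5 UMIs. Col11a1 rested on 26 UMIs against 1, so its 123 CPM after injury and 7.23 CPM before have a log2 ratio between 1.48 and 9.44. Col6a5, another alternative type VI chain, was lower, at 42.5 CPM after injury and 116 CPM before, on 9 and 16 UMIs. Col4a3 and Col4a4, chains that join Col4a5 in the glomerular network, had their highest level in perineurial-like cells. Col4a3 was there at 37.8 CPM (16.3 to 74.4) after injury and 65.1 CPM (29.7 to 124) before, and Col4a4 at 56.6 and 94.0 CPM, on 12 and 13 UMIs. In every other named subclass of the 3 libraries Col4a3 was at or under 10.9 CPM and Col4a4 at or under 11.8 CPM. Col4a1 was at 1274 and 1092 CPM in perineurial-like cells, above its level in the other named subclasses of its library.

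**Figure D4:**
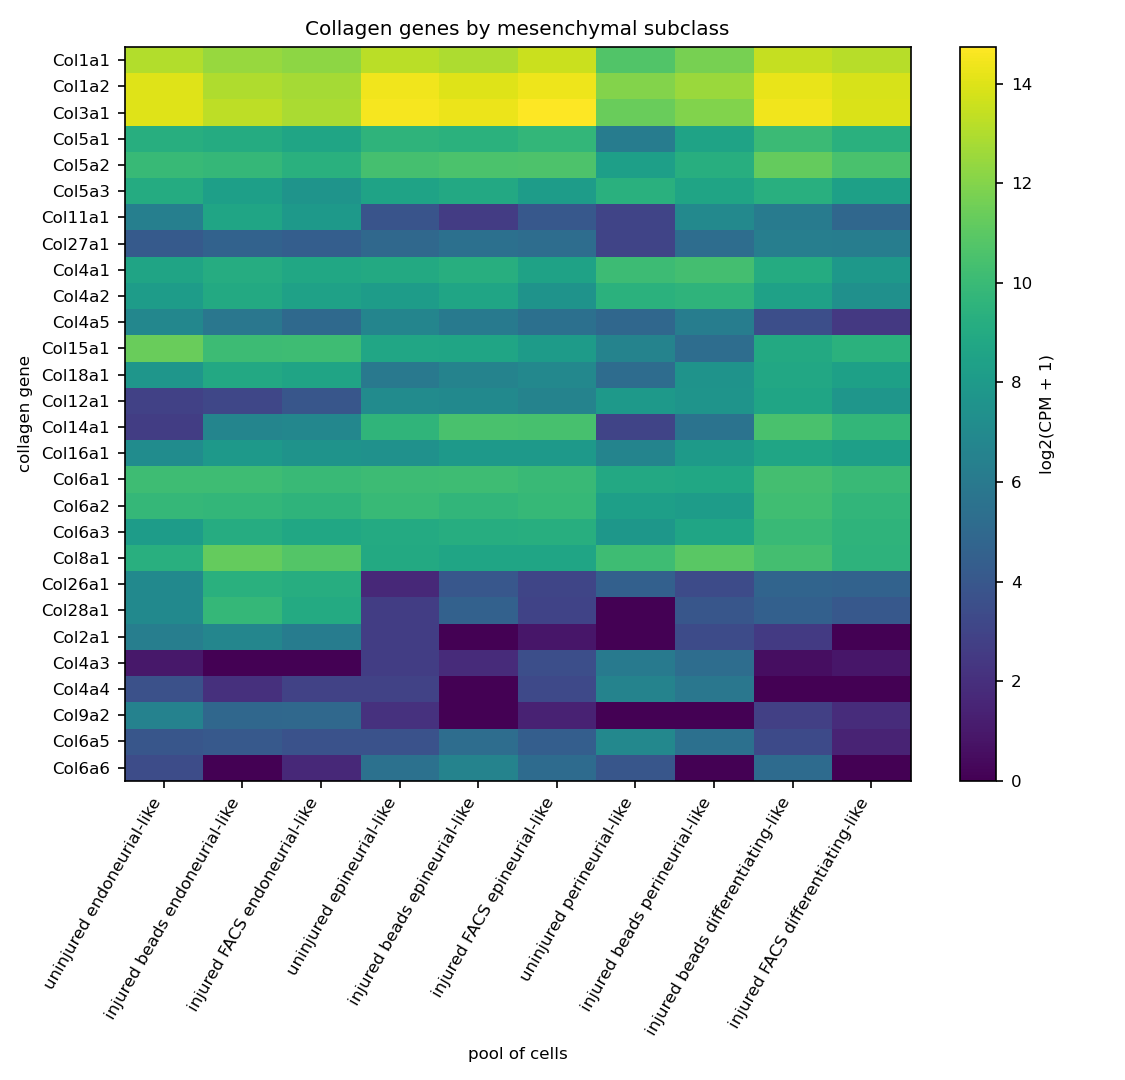
Level of 28 collagen genes in 10 pools of mesenchymal subclasses, as log2(CPM + 1), with libraries of a subclass side by side. Col26a1, Col28a1 and Col2a1 are brightest in the endoneurial-like columns, Col4a3 and Col4a4 in the perineurial-like columns, and Col14a1 in the epineurial- and differentiating-like columns.

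The last comparison asked which cell classes of the injured nerve held collagen message besides mesenchymal cells. Of the 21 collagen genes with at least 50 CPM in a named class of at least 50 cells, 14 were highest in mesenchymal-like cells in each injured library. For Col5a3 with beads, at 468 CPM, the interval overlapped that of pericyte or smooth muscle cell-like cells, at 430.4 CPM. In both libraries 5 were highest in Schwann cell-like cells, namely Col5a2, Col11a1, Col27a1, Col18a1 and Col16a1. These ranks are against mesenchymal-like cells as a whole. The share of all genes that are highest in each class was not taken. The counts of 14 and 5 are therefore not read as a result about collagen genes. Col11a1 was at 402 CPM in endoneurial-like and 213 CPM in Schwann cell-like cells with beads, and at 240 and 115 CPM with FACS. In beads differentiating-like cells Col5a2 was at 2476 CPM, beside 2499 in Schwann cell-like cells, and Col16a1 at 399, beside 411. In FACS differentiating-like cells Col5a2 was at 1447 CPM, beside 1669 in Schwann cell-like cells, and Col16a1 at 325, beside 261. The beads mesenchymal cells of unnamed subclass held Col16a1 at 583 CPM. For Col16a1 the Schwann cell-like rank thus did not hold against each subclass. Col27a1 and Col18a1 were under their Schwann cell-like level in every mesenchymal subclass. Col4a1 and Col4a2 were highest in pericyte or smooth muscle cell-like cells with beads, and in endothelial cell-like cells with FACS, where no pericyte cluster was named and the endothelial cluster was also led by the pericyte gene Rgs5. Schwann cell-like cells held 17924 CPM (17683 to 18167) of collagen message with beads and 13342 CPM (12870 to 13826) with FACS. Pericyte or smooth muscle cell-like cells held 15050.4 CPM (14741.5 to 15364), and endothelial cell-like cells 4970 and 5955 CPM. Clusters without a name, among them shallow and dividing cells, held 44549.5 CPM with beads and 30226 CPM with FACS.

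Immune cells should lack collagen message, and their level is given as a background, whose source was not tested. In B cell-, T or NK cell-, mast cell-, mononuclear phagocyte- and neutrophil-like cells of the beads library Col1a1 lay between 259 and 675 CPM, Col1a2 between 436 and 931 CPM and Col3a1 between 196 and 1001 CPM. Neutrophil-like cells, 124 cells with 85919 UMIs, were the highest for all 3 genes. Endothelial cell-like cells had 248, 318 and 399 CPM of the 3 genes, which is in or under those ranges. Schwann cell-like cells had 2547 CPM of Col1a1, 5707 CPM of Col1a2 and 2529.9 CPM of Col3a1, well above them. After thinning to 1000 UMIs, 84.9% of 331 Schwann cell-like cells and 36.0% of 275 phagocyte-like cells had a Col1a1 UMI, with 134 and 235 shallower cells left out. Before thinning the shares were 75.9% and 32.0%, at median depths of 2158 and 1073.5 UMIs.

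Schwann cell-like cells differed from mesenchymal-like cells as a whole in which chains they held. Col5a2 was at 2499 CPM (2410 to 2591) in Schwann cell-like and 1669.9 CPM (1632 to 1709) in mesenchymal-like cells with beads, and at 1669 and 1182 CPM with FACS. Col5a1 was at 521 and 805 CPM, so the ratio of Col5a1 to Col5a2 UMIs was 0.208 (0.191 to 0.227) in Schwann cell-like and 0.482 (0.463 to 0.502) in mesenchymal-like cells. FACS cells gave 0.214 (0.166 to 0.273) and 0.524 (0.499 to 0.551). Col27a1 was at 346 CPM (314 to 382) in Schwann cell-like and 54.7 CPM (47.9 to 62.1) in mesenchymal-like cells with beads, and at 274 and 42.9 CPM with FACS. Col18a1 was at 1078 CPM (1019 to 1139) and 414 CPM (395 to 433) with beads, and at 994 and 345 CPM with FACS. Col16a1 was at 411 CPM (375 to 449) and 332 CPM (315 to 349) with beads, while its FACS intervals overlap, as do the Col11a1 intervals in both libraries. Among the 5 immune classes named above Col27a1 reached 11.6 CPM and Col18a1 151 CPM. With cells of more than 1 mesenchymal marker UMI left out, 242 Schwann cell-like cells of the beads library held 19173 CPM of collagen message, as against 17924 CPM over all 465.

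The type III to type I balance differed as well. The ratio of Col3a1 to Col1a1 UMIs was 1.95 (1.92 to 1.97) in mesenchymal-like cells with beads, 0.993 (0.944 to 1.05) in Schwann cell-like and 4.77 (4.33 to 5.27) in pericyte or smooth muscle cell-like cells. With FACS the ratio was 1.86 (1.84 to 1.89) in mesenchymal-like and 0.609 (0.522 to 0.710) in Schwann cell-like cells. Col1a1 to Col1a2 stood at 0.586 (0.579 to 0.594) in mesenchymal-like, 0.446 (0.427 to 0.466) in Schwann cell-like and 0.347 (0.313 to 0.385) in pericyte or smooth muscle cell-like cells. In the authors' mesenchymal tables it was 0.588 (0.581 to 0.595) after injury and 0.475 (0.466 to 0.483) before.

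Among basement membrane chains, Col4a1 and Col4a2 were highest in vessel cells, Col18a1 in Schwann cell-like cells and Col15a1 in mesenchymal-like cells. Col4a1 was at 2374 CPM (2252 to 2500) in pericyte or smooth muscle cell-like, 1626 CPM (1571 to 1682) in endothelial cell-like and 603 CPM (580 to 626) in mesenchymal-like cells with beads. Col4a2 was at 1795, 1159 and 441 CPM in the same order. Basement membrane chains made up 71.0% of the collagen UMIs of endothelial cell-like cells with beads and 34.2% of those of pericyte or smooth muscle cell-like cells, beside 9.74% in Schwann cell-like cells. As a sum they were at 3530 CPM in endothelial cell-like and 5141 CPM in pericyte or smooth muscle cell-like cells. The sum was 2234 CPM in mesenchymal-like and 1746 CPM in Schwann cell-like cells. Col15a1 was at 359 CPM in endothelial cell-like and 731 CPM in mesenchymal-like cells with beads, and at 331 and 652 CPM with FACS, against 38.6 to 105 CPM in the 5 immune classes of the beads library.

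**Figure D5:**
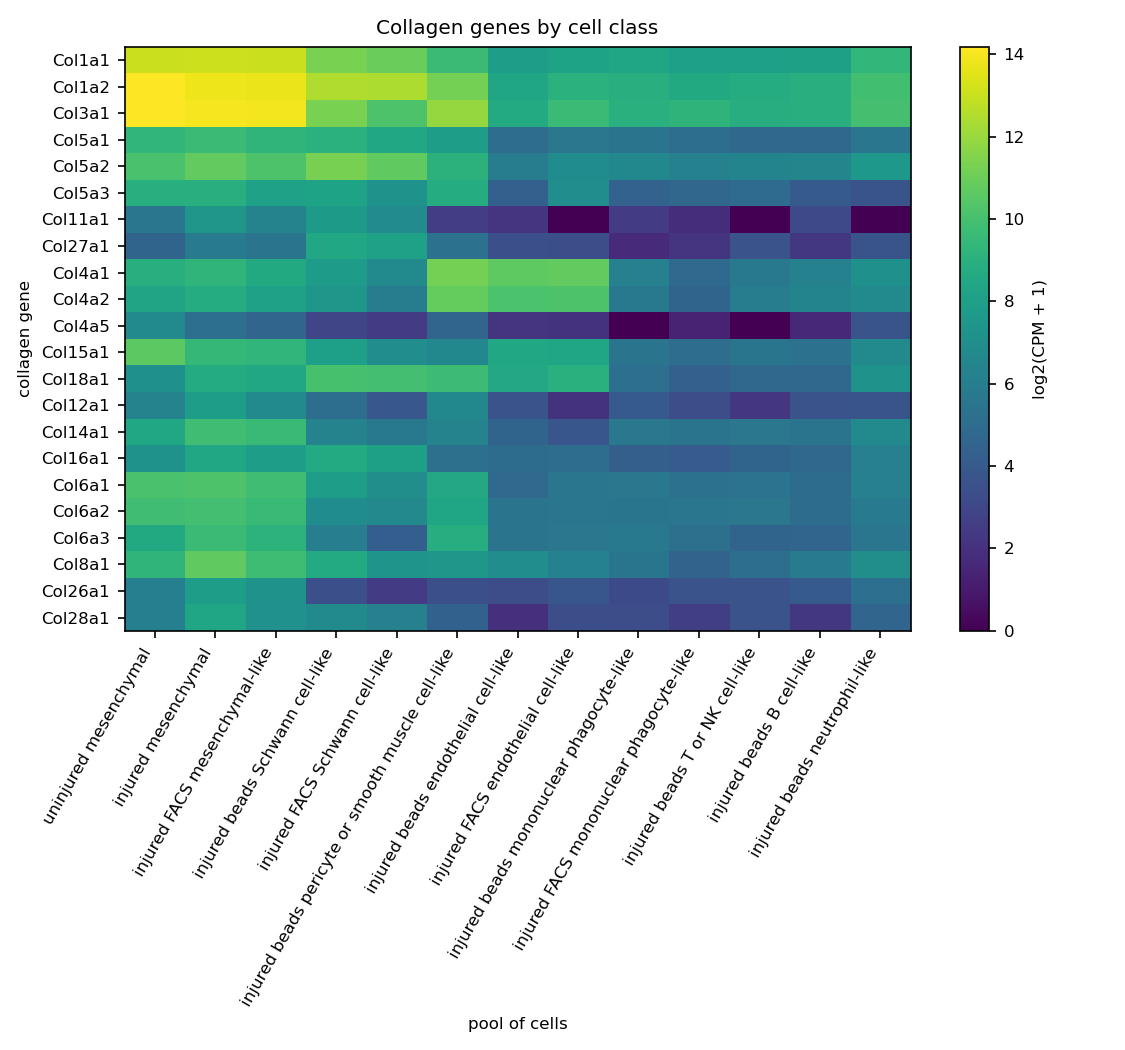
Level of 22 collagen genes in 13 pools of cells, as log2(CPM + 1) in colour. The Schwann cell-like columns are bright for Col5a2, Col18a1 and Col27a1, the vessel cell columns for Col4a1 and Col4a2, and Col14a1, Col26a1 and Col28a1 are brightest in the injured beads mesenchymal column.

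Genes that make, bind and cleave collagen were read from lists chosen for their roles, in the injured and uninjured mesenchymal tables. Of 28 biosynthesis genes 22 passed the floor, and 5 were higher and 1 lower, beside the 15.3% of all genes given above; their median log2 ratio was 0.32. Plod2, a lysyl hydroxylase of the collagen telopeptides, was at 236 CPM after injury and 65.0 CPM before, a log2 ratio of 1.86 (1.61 to 2.12). The cross-linking oxidases Loxl2, at 596 and 268 CPM, and Lox, at 534 and 263 CPM, had log2 ratios of 1.15 (1.02 to 1.28) and 1.02 (0.89 to 1.16). In FACS cells the log2 ratios were 0.33 for Loxl2 and 0.53 for Lox, under the limit, and 1.35 for Plod2. Plod3 (153 and 70.5 CPM) and the prolyl 3-hydroxylase P3h1 (135 and 63.6 CPM) had log2 ratios of 1.11 and 1.08, and 1.05 and 1.30 in FACS cells. Pcolce2, an enhancer of procollagen C-proteinase and a marker of the epineurial subclass, was lower, at 83.6 and 474 CPM, a log2 ratio of -2.50 (-2.67 to -2.33), and -2.05 in FACS cells. The chaperone Serpinh1 was at 1497 and 1548 CPM, with an interval that holds 1, and the prolyl 4-hydroxylase subunits P4ha1 and P4ha2 did not pass.

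Of the 10 receptor and uptake genes with a row, 4 passed the floor and 1 was higher, Mrc2, an uptake receptor for collagen, at 119 and 58.1 CPM, a log2 ratio of 1.03 (0.75 to 1.32) that was 0.76 in FACS cells. The integrin chain Itgb1 (938 and 554 CPM) and the receptor Ddr2 (173 and 179 CPM) did not pass. Of the 7 collagen-degrading proteases with a row, 4 passed the floor and 1 was higher, Mmp14, a membrane-bound collagenase, at 1071 CPM after injury and 389 CPM before, a log2 ratio of 1.46 (1.36 to 1.57), and 2.10 in FACS cells. Mmp13, a secreted collagenase, was at 36.7 CPM after injury and 0 before, under the floor. With the 3 subclasses at the same weight none of these 8 genes passed, and with DESeq2 or edgeR TMM scaling 3 genes were higher in place of 7. No share over all genes was taken for these settings.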

How the data were processed

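RNA of single sciatic nerve cells was counted by Drop-seq. The authors deposited 4 tables of raw UMI counts, genes by barcodes. Both injured libraries are given whole, and the injured and uninjured beads libraries also as mesenchymal subsets. The genome build named in the submitters' processing notes is mm10. What aligned and counted them, with or without strand, and how mesenchymal cells were predicted is not given in the sources used here. Every one of the 1289 injured mesenchymal barcodes was found in the beads table with 0 differing counts. A gene without a row in the uninjured or beads table was read as 0, and Col4a6, which has none in the FACS table, was given no value there.

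The members and the gene and marker lists were chosen with earlier results of these data known. The genes named in the text are those with at least 50 CPM in a mesenchymal pool or in a named class of at least 50 cells, and those past the size rule. Others below that level are named where the text singles them out, after their values were seen. Barcodes with at least 200 genes were clustered in scanpy 1.11.5 (Python 3.11.15, 2000 variable genes, 30 principal components, 15 neighbours, Leiden resolution 0.8) with every collagen gene left out. For subclasses, both mesenchymal tables entered 1 clustering. Clusters were named from 9 lists of class markers and 4 of subclass markers. The scoring rule was set after the data were seen: a score of at least 1, a margin of 1, and 3 markers seen in 5% of cells. Shallow clusters and clusters led by blood or immune genes stayed unnamed. No doublet caller was used, so doublets remain.

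UMIs were summed per pool and scaled to CPM, with exact Poisson 95% intervals, and ratios carry exact conditional binomial 95% intervals. The size rule was checked on simulated counts. DESeq2 1.42.0 and edgeR 4.0.16 (R 4.3.3) served only for 2 other scalings. Gene positions are from GENCODE vM21 (GRCm38) and promoter sequences from RefSeq (GRCm38.p6). With 1 library per group, spread between animals is unknown, and cells were not treated as replicates.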

Additional observations from a re-analysis of the deposited data

Results flagged for a closer look

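For 5 fibrillar genes the interval of the injured to uninjured ratio lay above 1 in 1 mesenchymal subclass and below 1 in another. Each gives the gap between the log2 ratios of the 2 subclasses, and the difference itself was not tested, since each group is 1 library. Col1a1 had a log2 ratio of 0.98 (0.76 to 1.19) in perineurial-like and -0.60 (-0.64 to -0.56) in endoneurial-like cells, a gap of 1.57. Col1a2 had 0.56 (0.42 to 0.71) and -1.02 (-1.05 to -0.99), a gap of 1.59, and Col3a1 had 0.58 (0.40 to 0.77) and -0.71 (-0.74 to -0.68), a gap of 1.29. In those 3 genes perineurial-like cells stood above their uninjured level and endoneurial-like cells below it. Col5a2 had 0.90 (0.40 to 1.43) in perineurial-like and -0.16 (-0.27 to -0.05) in endoneurial-like cells, a gap of 1.06. Col5a3 had 0.34 (0.07 to 0.60) in epineurial-like and -0.77 (-1.21 to -0.32) in perineurial-like cells, a gap of 1.10. The injured endoneurial-like cells have a median of 6159.5 UMIs and the uninjured ones 2181, and the part of depth in these values was not tested.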

How the results depend on the processing

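No paired analysis was possible because each group holds 1 library. The cause of the differences below was not tested. The count of collagen genes higher after injury was 10, and between 9 and 12 under 9 of 11 alternatives. It was 6 with 3 subclasses at the same weight and 4 with FACS cells as the injured pool. The count of lower genes was 2, and became 5 at a floor of 10 CPM, 7 with no floor, 0 in cells with at most 1 UMI of other classes and 1 with 3 subclasses at the same weight. It became 3, with Col9a2 added, under DESeq2 or TMM scaling and with collagen UMIs left out of the total. With equal weights Col12a1 changed sign, to -0.25. In the FACS comparison the lower count of 2 became 7 at a floor of 10 CPM. Shares over all genes were taken only for the main setting of each comparison, at the floor of 50 CPM. Apart from FACS cells as the injured pool, counts under the alternatives, above and below, therefore have no such share beside them. They are not read as a result about these genes. The biosynthesis, receptor and protease genes that were higher, 7 in number, became 3 under DESeq2 and under TMM scaling, 11 at a floor of 10 CPM, 12 with no floor and 0 with equal weights, and the 1 lower gene became 4, 5, 2 and 0 at the floor of 10 CPM, with no floor, in cells with few UMIs of other classes and with equal weights. Total collagen was 54225 and 49599 CPM (injured and uninjured, log2 ratio 0.13) after thinning, 58127 and 55169 CPM (0.075) in cells with few UMIs of other classes, 53919 and 48766 CPM (0.14) as a mean over cells, and 36753 and 42750.0 CPM (-0.22) with equal weights. Without cells of unnamed subclass clusters, an alternative chosen after seeing the data, the injured total was 51334 CPM and the log2 ratio -0.067. In perineurial-like cells the lower count of 1 became 2 at resolution 0.4. The count of 14 genes highest in mesenchymal-like cells stayed between 14 and 16 in both libraries under the other clusterings and with mesenchymal-marked cells left out of the other classes, the latter chosen after seeing the data. Depth limits the small pools: several perineurial-like values rest on fewer than 50 UMIs, and the neutrophil- and mast cell-like pools of the beads library hold 85919 and 56128 UMIs.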
